A study of Mus musculus with 123 samples.

Results

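Across 130727 open chromatin regions of the mouse cerebral cortex, 1119 peaks (0.856%) were most open at ZT12, the end of the light period, in undisturbed mice. They were chosen on the deposited ATAC-seq values: on the scale log2(signal + 0.5), the mean of the ZT12 controls exceeded the highest of the ZT0, ZT3, ZT6 and ZT18 control means by at least 0.4, and the mean over all libraries was at least 1.5. This level was reached by 118796 peaks. ATAC-seq inserts sequencing adapters with the transposase Tn5 wherever DNA is accessible, and the signal of a peak is the scaled number of reads that fall in it.

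All animals were male C57BL/6J mice, 11 to 12 weeks old, kept in a light-dark cycle with lights on at ZT0. In the deprived groups, gentle handling prevented sleep during the 6 h after lights on, which put T27 and T30 at 3 h and 6 h of enforced wakefulness and T36, T42, T48, T54, T60, T66, T72, T78, T192 and T198 at 6 to 168 h of recovery. Controls slept freely and were taken at ZT0, ZT3, ZT6, ZT12 and ZT18. There were 34 deprived and 25 control ATAC-seq libraries, each from the cortex of 1 mouse, with 3 libraries in each deprived group except T66, which had 1, and 8, 3, 5, 5 and 4 in the controls of ZT0, ZT3, ZT6, ZT12 and ZT18. RNA-seq gave 62 libraries, of the same animals and of 3 more. The sample descriptions of T36 place that group within the deprivation, whereas the protocol ends it at T30; the time given by the protocol is used here. The T60, T66, T192 and T198 mice belonged to batch 2 of the labels and the other deprived mice to batch 1.

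Accessible chromatin away from gene starts is often an enhancer, a stretch of DNA at which transcription factors bind and raise the transcription of a gene that may lie far away. In mouse tissues such regions can open and close over the day under the circadian clock, a feedback loop of transcription factors, and under signals that follow the sleep-wake cycle, among them the adrenal glucocorticoid hormone, which in nocturnal rodents peaks near dark onset, and neuronal activity.

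The libraries held, in units of 1e6, 2.21 to 11.9 reads in peaks with a median of 4.09, so that the median member was covered by 8 to 57 reads per library. The RNA carried the markers of cortex: the excitatory neuron genes Slc17a7, Tbr1 and Neurod6 had median levels above those of 83.8% or more of the measured genes, and none of these 3 or of the 4 inhibitory, 4 astrocyte and 4 oligodendrocyte markers passed the test at ZT12 in controls (limma, adjusted p below 0.05). The 3 endothelial markers Cldn5, Flt1 and Pecam1 were all lower at ZT12 (limma, adjusted p = 2.23e-12, 4.42e-05 and 0.00498), and their summed level (2 to the power of the deposited value) was 57.8 to 73.9 in ZT12 controls and 78.6 to 97.8 in the other controls. Of 4 microglial markers only Cx3cr1 was lower, and of 2 choroid plexus markers only Kl. The other choroid plexus marker, Ttr, was between 0.41 and 7.54 on the deposited log2 scale across libraries. In bulk tissue, fewer cells of a type and less signal per cell cannot be told apart.

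Sequence was read for promoter windows, which few members overlapped. A promoter window of the RefSeq table (250 bases before to 50 after a start site, build GRCm38.p6) was overlapped by 7 of the 1070 members on chromosomes covered by that table (0.654%), against 10.7% of the 114203 peaks of the same level and, among peaks chosen in the same way at other times, 0.897% at ZT0, 6.36% at ZT3, 4.48% at ZT6 and none at ZT18. The windows of 3 protein-coding genes among them are shown because there a ZT12 peak lies on a gene start: Fam107a, which codes for an actin-associated protein, Aldh1a1, an enzyme of retinoic acid synthesis, and Sv2b, a glycoprotein of synaptic vesicles. The stretches are the parts of the windows inside the peaks, chr14:8309730-8310029 on the minus strand, chr19:20492458-20492632 on the plus strand and chr7:75302560-75302859 on the minus strand, written 5′ to 3′, with motif matches in capitals.
Fam107a: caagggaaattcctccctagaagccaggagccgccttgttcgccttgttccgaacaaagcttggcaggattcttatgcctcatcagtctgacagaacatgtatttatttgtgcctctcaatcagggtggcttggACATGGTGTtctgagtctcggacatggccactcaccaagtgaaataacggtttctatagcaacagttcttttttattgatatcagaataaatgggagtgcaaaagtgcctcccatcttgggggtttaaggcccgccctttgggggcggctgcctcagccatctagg
Aldh1a1: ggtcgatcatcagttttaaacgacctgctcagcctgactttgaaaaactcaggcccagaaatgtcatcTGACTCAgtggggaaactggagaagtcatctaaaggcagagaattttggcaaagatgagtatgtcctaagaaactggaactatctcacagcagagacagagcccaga
Sv2b: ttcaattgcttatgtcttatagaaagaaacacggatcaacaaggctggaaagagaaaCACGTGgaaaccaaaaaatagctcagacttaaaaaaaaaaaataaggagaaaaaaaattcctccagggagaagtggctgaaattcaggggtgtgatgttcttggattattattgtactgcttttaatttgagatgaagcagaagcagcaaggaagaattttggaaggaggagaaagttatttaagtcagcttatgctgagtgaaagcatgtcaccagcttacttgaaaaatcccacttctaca

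The capitals mark a glucocorticoid element (ACANNNTGT) in Fam107a, an AP-1 element (TGAGTCA on the other strand) in Aldh1a1 and an E-box (CACGTG), the motif of the clock proteins CLOCK and BMAL1, in Sv2b. Searched on both strands, the glucocorticoid element was found in 2 of the 8 windows under members (Fam107a and Mettl11b), the AP-1 element in 2 overlapping windows that share 1 match (Aldh1a1 and E030003E18Rik), and the E-box in 1. Of all 32851 promoter windows, 6.85% held the glucocorticoid element, 5.20% the AP-1 element and 7.15% the E-box, and 3 of the 8 stretches under members were shorter than a full window. The D-box (TTATGTAA or TTACGTAA), the ROR element (TAGGTCA), the CRE (TGACGTCA), the EGR motif (GCGTGGGCG), the MEF2 motif, the heat shock element, the NF1 motif and the CTCF core were in none of the 8 and in 0.0122% to 2.61% of all windows. A match is a string of letters and does not show that a factor bound there.

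The Aldh1a1 peak, chr19:20492458-20492827, had 4.54, 5.52 and 6.66 at T60, against 2.64, 3.72 and 4.31 at T192 and 2.44, 2.62 and 4.18 at T198. The T60 libraries were above all 6, and the difference of 0.68 on the log2 scale (SE 0.26) missed the threshold (limma, adjusted p = 0.505). The Sv2b peak, chr7:75302387-75303169, had 13.5, 13.8 and 13.9 at T60, against 5.95 to 10.9 over the 6 libraries of T192 and T198, again without overlap (difference 0.58, SE 0.18, limma, adjusted p = 0.254). In controls Aldh1a1 had 4.48 to 7.46 at ZT12 and 1.94 to 5.63 at other times, and Sv2b 11.9 or more at ZT12, with a median of 12.1, and 6.33 to 12.3 at other times. The Fam107a peak is described with the members called at T60.

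The members stood apart at ZT12 in every ZT12 control. The median over the 1119 peaks, taken in each library on the log2 scale, was 2.89 ± 0.11 in ZT12 controls (SD, n = 5), against 2.26 ± 0.19 at ZT0 (n = 8), 2.28 ± 0.14 at ZT3 (n = 3), 2.25 ± 0.22 at ZT6 (n = 5) and 2.31 ± 0.17 at ZT18 (n = 4). The 5 ZT12 libraries lay between 2.72 and 2.99 and all 20 other control libraries at or below 2.59. These values chose the peaks and are a description, as is the excess of ZT12 over the next highest control time, which had a median of 0.48 on the log2 scale (1.39-fold) and reached 1.31 (2.47-fold). The median over all 130727 peaks was 2.32 to 2.43 across the control libraries.

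At ZT18 the median member was back near its level at the other times. The second highest control time was ZT18 for 426 members, ZT3 for 257, ZT6 for 235 and ZT0 for 201, and the lowest time was ZT6 for 343, ZT0 for 334, ZT3 for 294 and ZT18 for 148. In 80 members every ZT12 library was above every other control library, a pattern that 0.0757% of all peaks showed and that the choice of peaks favours. The same margin picked 233 peaks most open at ZT0, 299 at ZT3, 291 at ZT6 and 152 at ZT18. At the threshold, the 3 members just inside were chr12:43832027-43832369, chr1:40600266-40601415 and chrX:40173699-40174521 with an excess of 0.4001, 0.4002 and 0.4008, and the 3 peaks just outside were chr3:109496871-109497398, chr3:76831860-76832424 and chrX:143080485-143081306 with 0.3998, 0.3996 and 0.3994.

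**Figure D1:**
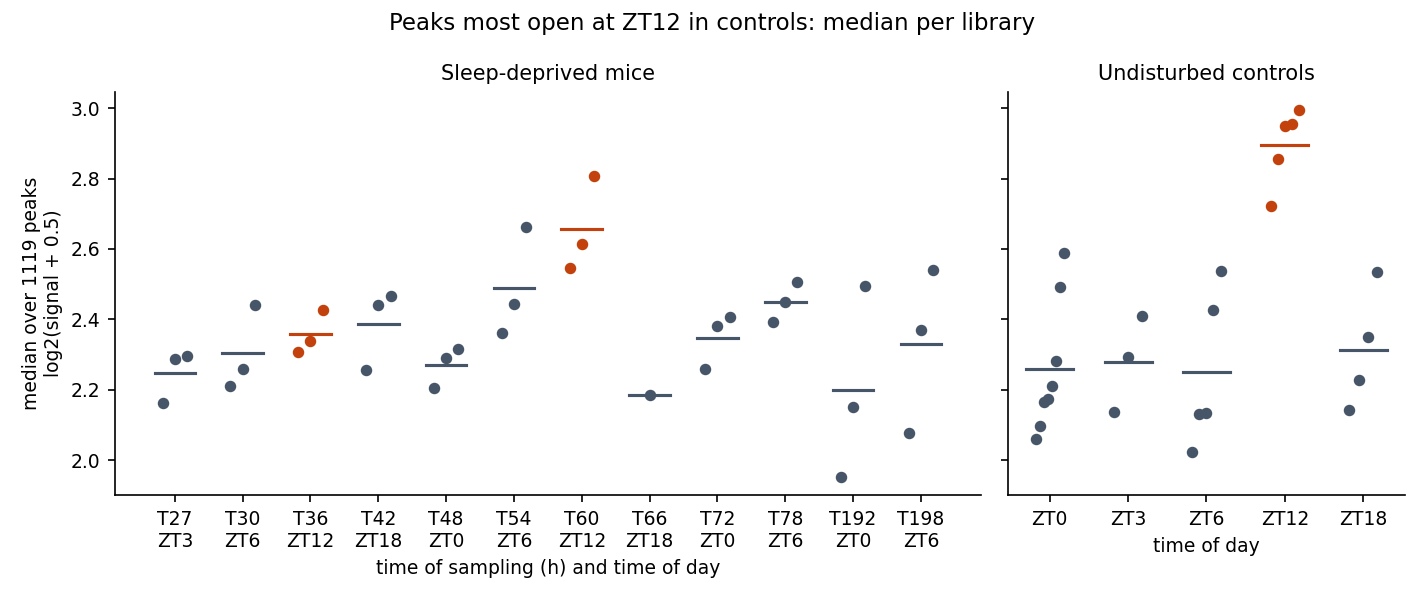
The median of log2(signal + 0.5) over the 1119 peaks is plotted for every library (points) with the mean of each group (bars), deprived mice by time of sampling on the left and controls by time of day on the right, with ZT12 groups in orange. The 5 ZT12 controls lie between 2.72 and 2.99, the 3 T60 libraries between 2.55 and 2.81, and the 3 T36 libraries between 2.31 and 2.43.

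The 12 members with the largest excess had 2.47-fold to 1.85-fold more signal at ZT12 than at the next highest time, and 11 of them lay outside protein-coding genes. The first was chr1:65638830-65639332, 287 kb from the nearest start site, that of the lens crystallin gene Crygf. Its deposited signal was 5.73, 6.30, 7.50, 8.08 and 8.29 in ZT12 controls, against 1.00 to 4.70 at ZT0 with a median of 2.74, 1.80 to 3.80 at ZT3, 1.78 to 3.73 at ZT6 and 1.79 to 3.53 at ZT18. No ZT12 library overlapped any other control library at this peak.

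In deprived mice the same peak had 1.71, 2.50 and 2.58 at T36, and 4.80, 5.52 and 5.61 at T60. The T36 values lay within the range of controls taken at other times, while the T60 values lay above all 6 libraries of T192 and T198, which had 1.58 to 3.80. The T60 difference was 1.01 on the log2 scale (SE 0.29) and missed the threshold (limma, adjusted p = 0.197). The next 2 members, chr12:49830723-49831132 and chr5:42363855-42364374, had an excess of 1.09 each, and the tallest of the 12, chr15:71243374-71244219, 195 kb from Fam135b, had 18.9 to 25.9 in ZT12 controls and 5.80 to 17.1 in all other controls.

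The members lay far from gene starts, in stretches with few genes. Their median distance to the nearest start site was 74.6 kb, with quartiles of 25.1 and 213 kb, against a median of 26.0 kb and quartiles of 6.88 and 75.9 kb for peaks of the same level, and 43.3% of members were more than 100 kb away, against 19.7%. The median number of start sites within 500 kb was 5, against 12, and the median number of peaks within 100 kb was 8, against 15. A protein-coding gene span held 408 members (36.5%), against 56.7% of peaks of that level. These position values are a description of the chosen peaks.

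Peaks most open at the other times lay closer to start sites. Their median distance to a start site was 47.5 kb for ZT0, 26.9 kb for ZT3, 14.7 kb for ZT6 and 36.0 kb for ZT18, all smaller than the 74.6 kb of the ZT12 peaks. The width of the members, with a median of 557 bases, was close to the 579 bases of peaks of that level. By chromosome, members made up 1.64% of the peaks on the X (36 of 2194) and 0.344% of those on chromosome 7 (21 of 6104), the highest and lowest shares among chromosomes with members.

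**Figure D2:**
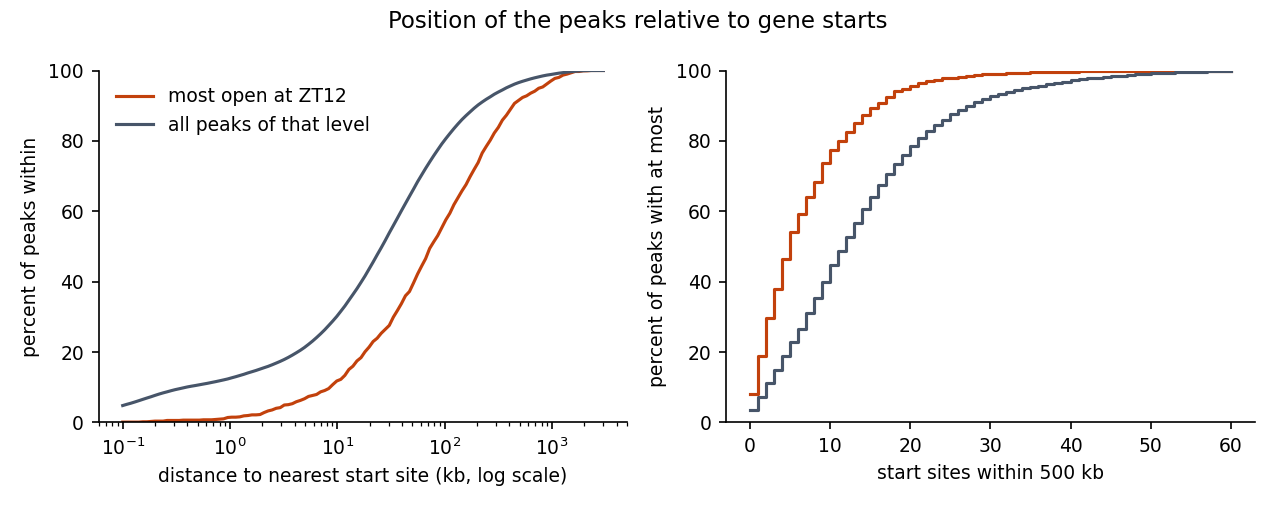
The left plot gives the percent of peaks within a given distance (kb, log scale) of the nearest start site and the right plot the percent with at most a given number of start sites within 500 kb, for peaks most open at ZT12 (orange) and all peaks of the same level (grey). The ZT12 curve lies to the right on the left plot, with medians of 74.6 kb against 26.0 kb, and to the left on the right plot, with medians of 5 against 12.

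Some genes had several members as neighbours. The 1119 members were nearest to 820 measured genes, and 344 lay inside the span of that gene. Gpc5, a heparan sulfate proteoglycan of the cell surface, was nearest to 7 members, Aldh1a1 to 6, and the arrestin-domain gene Arrdc3 and the kinase gene Map3k7 to 5 each. Another member lay within 100 kb of 184 members (16.4%).

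Deprived mice entered the choice of peaks only through the mean level over all libraries, so differences among them were not used by it. At ZT12 of Day 2, 30 h after the end of deprivation, the median over members lay above that of Day 8. It was 2.66 ± 0.14 at T60 (ZT12; SD, n = 3), against 2.20 ± 0.27 at T192 (ZT0) and 2.33 ± 0.23 at T198 (ZT6; n = 3 each). The 3 T60 libraries, at 2.55, 2.61 and 2.81, lay above all 6 libraries of Day 8, at 1.95, 2.15 and 2.49 for T192 and 2.08, 2.37 and 2.54 for T198. T60 differs from these groups in both the time of day and the days since deprivation, which cannot be told apart here. T54, taken at ZT6 of Day 2 in batch 1, had 2.36, 2.44 and 2.66 and overlapped T60. Peak by peak, T60 minus the mean of T192 and T198 had a median of 0.41 over members (1.33-fold) and 0.01 over all peaks, and it was positive in 1035 members (92.5%), against 52.1% of all peaks.

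At an adjusted p below 0.05 (limma over all 130727 peaks), 17 members (1.52%) were higher at T60 and none was lower, where the background was 0.0222% higher and 0.0168% lower; 17 of the 29 peaks called higher were members. At an unadjusted p below 0.05, 453 members (40.5%) were higher and 0 lower, against 3.47% and 3.41% of all peaks, and edgeR's quasi-likelihood test on the recovered reads called 225 members higher and 0 lower, against 0.52% higher and 0.447% lower of all peaks. In 205 members (18.3%) all 3 T60 libraries were above all 6 libraries of T192 and T198, against 2.12% of all peaks. The difference grew with the excess in controls, from a median of 0.33 in the 669 members with an excess of 0.4 to 0.5, to 0.45 in the 256 with 0.5 to 0.6 and 0.68 in the 194 with 0.6 or more.

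The count of 17 moved with single libraries. Without T60S4 there were 0 calls, without T60S3 2, without T60S2 9, without J70S1 11, without J70S2 48, without J70S3 9, without J76S1 or J76S2 10 and without J76S3 30, while the median difference stayed between 0.34 and 0.48. All peaks called higher went from 29 to 0 without T60S4, 2 without T60S3, 9 without T60S2, 15 without J70S1 and 81 without J70S2. They numbered 16 without J70S3 or J76S1, 12 without J76S2 and 53 without J76S3. The unadjusted count of 453 was 286 without T60S4 (25.6% of members, against 2.13% of all peaks). The endothelial markers moved with the same groups (summed level 61.3 to 68.5 at T60 and 82.9 to 99.8 at T192 and T198), as did the oligodendrocyte markers (1951 to 2200 at T60 and 1528 to 1919 at T192 and T198); their part in the result was not tested.

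**Figure D3:**
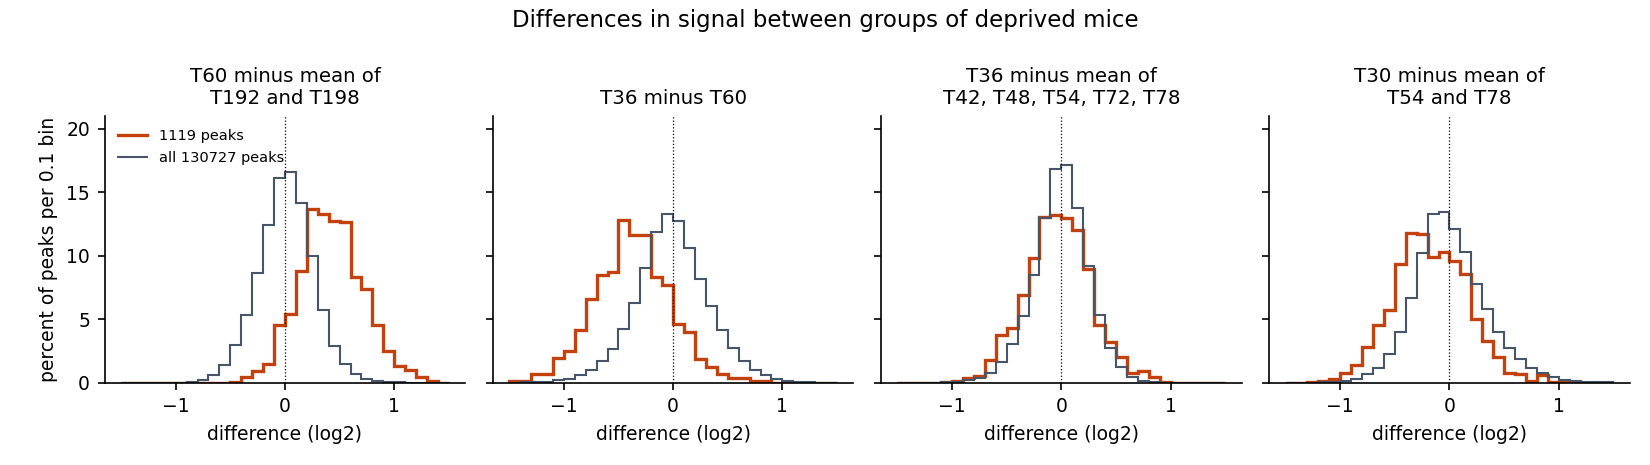
Each plot gives the percent of peaks per bin of 0.1 in a difference between groups of deprived mice (log2 scale), for the 1119 peaks (orange) and all 130727 peaks (grey); values beyond 1.5 are placed in the end bins. The members lie to the right of all peaks in the T60 difference (medians 0.41 and 0.01), to the left in T36 minus T60 (−0.37 and −0.01) and T30 (−0.19 and −0.02), and over them in T36 against the later groups (−0.03 and 0.00).

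Among the 17 called members, the smallest adjusted p belonged to chr7:17058086-17058738 in Hif3a, which codes for a subunit of a hypoxia-inducible factor; this peak is named here because of that p. It had 15.6, 18.9 and 21.4 at T60, against 6.65, 7.47 and 8.21 at T192 and 7.31, 8.75 and 10.3 at T198. The 3 T60 values were all above the other 6, a difference of 1.15 (SE 0.18, limma, adjusted p = 0.000418), and without T60S4 the adjusted p was 0.0574. In controls this peak had 17.9 to 20.4 at ZT12 and at most 16.4 at any other time.

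The peak chr17:56108599-56109161, 0.902 kb from the start of Plin4, a coat protein of lipid droplets, had 9.08, 12.0 and 12.4 at T60, against 4.25, 4.31 and 5.30 at T192 and 2.72, 3.50 and 6.27 at T198. The groups did not overlap, with a difference of 1.28 (SE 0.22, limma, adjusted p = 0.00106). At T36 it had 8.35, 8.84 and 9.19, against 8.40 to 15.1 in ZT12 controls and 3.79 to 7.16 in ZT0 controls.

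The Fam107a start-site peak, chr14:8309634-8310215, whose sequence with the glucocorticoid element is printed above, had 7.21, 10.7 and 12.5 at T60, against 2.87, 3.37 and 5.41 at T192 and 3.21, 3.44 and 4.56 at T198. The T60 libraries were again above all 6, with a difference of 1.30 (SE 0.23, limma, adjusted p = 0.00196). Its high values were not limited to ZT12: it had 6.88 to 9.70 at T27, 7.77 to 12.5 at T30 and 8.35 to 12.8 at T36, against 7.35 to 10.9 in ZT12 controls and 2.68 to 9.05 in ZT6 controls.

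The largest T60 difference, 1.33 (SE 0.24, limma, adjusted p = 0.00284), was at chr3:130633737-130634489 in Etnppl, a lyase of ethanolamine phosphate found in astrocytes. It had 6.94, 7.74 and 10.7 at T60, against 1.32, 3.70 and 3.83 at T192 and 2.62, 3.72 and 3.80 at T198, again with no overlap. The calls at Etnppl, Fam107a and Plin4 were lost without T60S3 or T60S4, with adjusted p up to 0.229, 0.163 and 0.0821. A peak in Edc3, chr9:57723298-57723738, was higher by 1.27 (SE 0.27, limma, adjusted p = 0.0313), a call lost without any one of J70S3, J76S1, J76S2, T60S2, T60S3 and T60S4.

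Distant peaks passed too. The peak chr16:77930942-77931756, 370 kb from the nearest measured gene, Cxadr, had 13.2, 15.8 and 15.9 at T60, against 5.41, 5.57 and 7.80 at T192 and 5.54, 5.59 and 8.74 at T198 (difference 1.17, SE 0.23, limma, adjusted p = 0.00746). Its T36 values, 6.12, 7.75 and 9.41, overlapped those of Day 8. At chr12:68402170-68403270, 248 kb from a start site, T60 was higher by 1.19 (SE 0.21, limma, adjusted p = 0.00178), and both calls were lost without T60S3 or T60S4. Of all 17 called members, 8 lay in protein-coding genes, against 36.5% of all members. Within 1 kb of a start site lay 3, those of Fam107a, Plin4 and, at the Etnppl peak, the predicted gene Gm36322. Of all members with a distance, 1.40% lay within 0.951 kb of a start site.

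**Figure D4:**
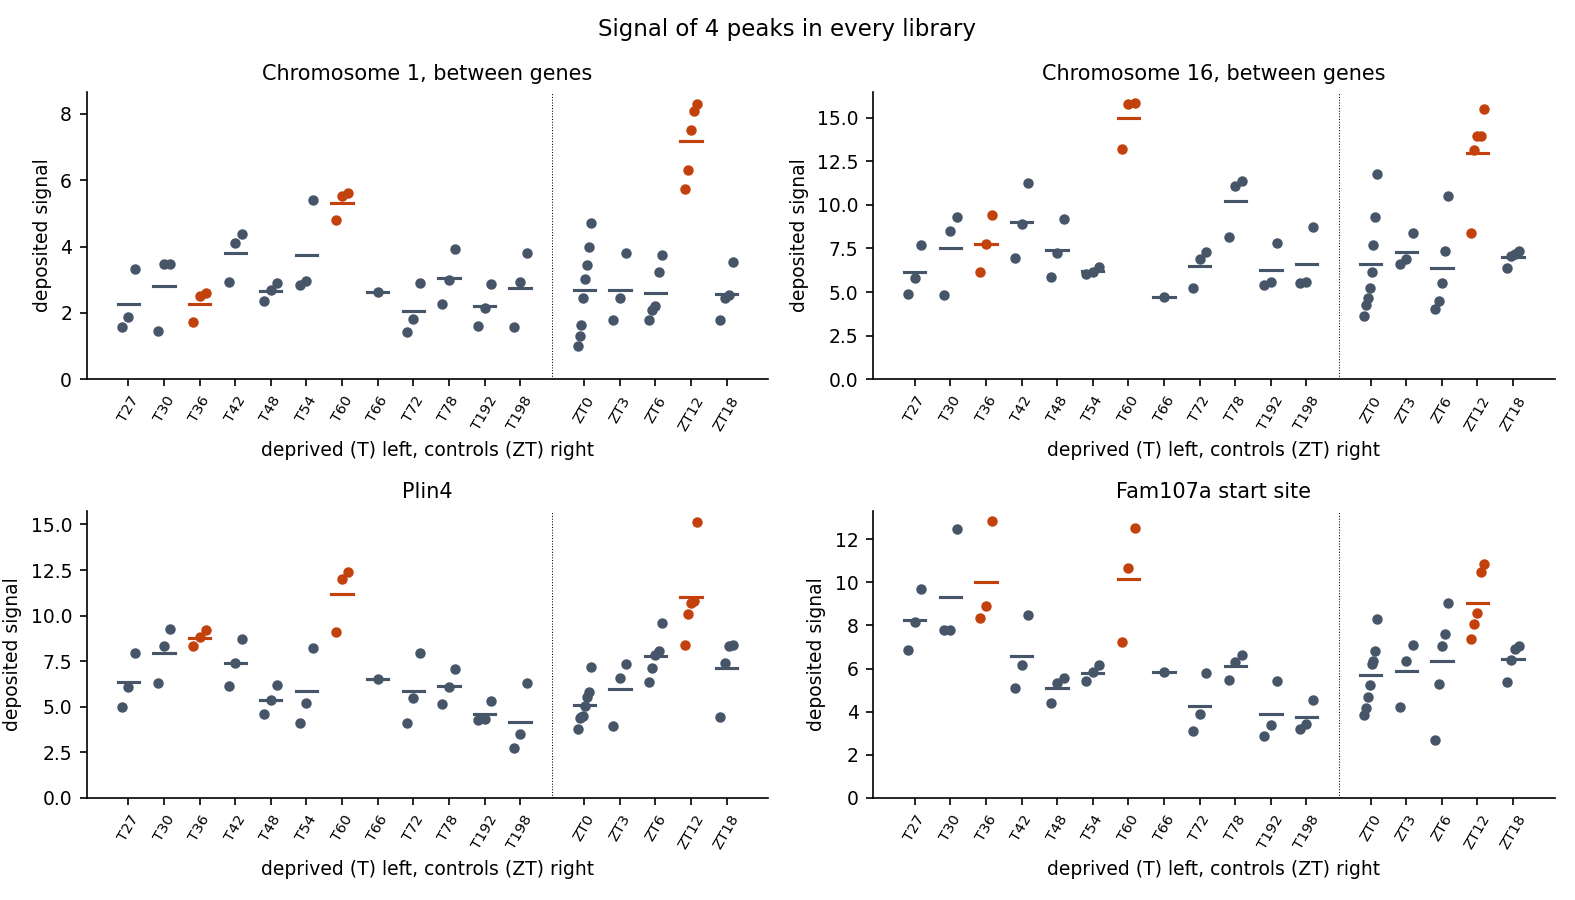
Deposited signal in every library (points, with group means as bars) is shown for 4 peaks, deprived groups on the left and controls on the right of each plot, with ZT12 groups in orange. The distant peaks on chromosomes 1 and 16 are at 1.71 to 2.58 and 6.12 to 9.41 at T36, within the range of other times, while the Plin4 and Fam107a peaks are at 8.35 to 9.19 and 8.35 to 12.8 at T36.

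At ZT12 of the day of deprivation itself, 6 h into recovery, the median member lay below its level at T60. The median over members was 2.36 ± 0.06 at T36 (SD, n = 3), with libraries at 2.31, 2.34 and 2.43, below all 3 libraries of T60. T36 minus T60 had a median of −0.37 over members and −0.01 over all peaks, and it was negative in 967 members (86.4%), against 51.5% of all peaks. No member and no peak passed an adjusted p of 0.05 (limma; background 0.0% higher and 0.0% lower); at an unadjusted p below 0.05, 264 members (23.6%) were lower and 2 higher, against 3.3% and 3.27% of all peaks. Without T60S4 the count of 264 was 149 (13.3%, against 2.20% of all peaks). edgeR called 7 members lower and 0 higher, against 0.013% and 0.0199% of all peaks. T36 belonged to batch 1 and T60 to batch 2, so the difference rests on a batch term set by the controls, whose values chose the peaks. The coefficients, p-values and counts of T36 minus T60 therefore draw on those values too. Without that term 11 members (limma) were called lower and 0 higher, against 0.0405% and 0.0643% of all peaks. The median over members was then −0.35, and batch cannot be told apart from group.

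The smallest p in T36 minus T60 was at chr1:80073722-80074832, with 19.2, 20.2 and 20.3 at T36, against 32.8, 35.4 and 45.2 at T60, a difference of −0.99 (SE 0.21, limma, adjusted p = 0.0757). The groups did not overlap at this peak, which was picked by its p. The peak chr3:150530740-150531564 had 7.24, 8.04 and 9.13 at T36, against 17.6, 17.7 and 21.1 at T60 (difference −1.25, SE 0.27, limma, adjusted p = 0.0886).

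Against the later recovery groups of its own batch, no member was called at T36. T36 minus the mean of T42, T48, T54, T72 and T78, with the times of day weighted equally, had a median of −0.03 over members and 0.00 over all peaks and was positive in 46.0% of members, against 50.2% of all peaks. The call was missed in both directions (limma, adjusted p below 0.05; background 0.00229% higher and 0.0275% lower); at an unadjusted p below 0.05, 66 members (5.90%) were higher and 106 (9.47%) lower, against 3.6% and 4.81% of all peaks, and edgeR called 1 higher and 0 lower, against 0.00382% and 0.0% of all peaks. The unadjusted counts moved with single T36 libraries: 61 higher and 62 lower without T36S1, 56 and 54 without T36S2, and 37 and 133 without T36S4. With T27 and T30 added to the later groups they were 73 and 64. The median over members also changed sign, to 0.0029 without T36S1 and 0.0056 with T27 and T30 added. The T36 difference was positive in 14 of the 17 members called at T60, a count over peaks picked by their T60 values and given without a test.

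Of the 3 members with the smallest p in this comparison, 2 had positive T36 differences and 1 a negative one. The peak chr10:27653894-27654979, 37.5 kb from the start of the laminin gene Lama2, had 23.4, 26.0 and 30.2 at T36, against 7.97 to 25.9 over the 15 libraries of T42, T48, T54, T72 and T78 (difference 0.81, SE 0.18, limma, adjusted p = 0.0529). At chr16:37871302-37871790 in Lrrc58 the T36 values were 6.12, 10.6 and 15.4 (difference 0.92, SE 0.21, limma, adjusted p = 0.0554), with 1 of the 3 libraries inside the 2.93 to 8.69 of the later groups. The third, chr3:150530740-150531564, described above for T36 minus T60, had a difference of −0.80 (SE 0.19, limma, adjusted p = 0.0644).

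Part of the list was lower at the end of deprivation than at the same hour of the following days. The median over members was 2.30 ± 0.12 at T30 (SD, n = 3), against 2.49 ± 0.15 at T54 and 2.45 ± 0.06 at T78 (n = 3 each), all at ZT6, and 2.25 ± 0.22 in ZT6 controls (n = 5). T30 minus the mean of T54 and T78 had a median of −0.19 over members and −0.02 over all peaks, and 69.0% of members were negative, against 52.5%. At an adjusted p below 0.05, 26 members (2.32%) were lower at T30 and 5 (0.447%) higher (limma), where the background was 0.497% lower and 1.37% higher. At an unadjusted p below 0.05, 217 members (19.4%) were lower and 28 (2.50%) higher, against 6.8% and 8.07% of all peaks. edgeR called 27 members lower and 7 higher, against 0.418% and 1.89% of all peaks. The T30 libraries, at 2.21 to 2.44, lay inside the range of the undisturbed ZT6 controls, at 2.02 to 2.54.

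The counts of 26 lower and 5 higher depended on single libraries. Without T30S4 there were 4 lower and 2 higher, without T30S3 15 and 2, without T30S1 2 higher, without T54S1 11 lower, without T54S2 3 higher and without T78S2 14 lower and 2 higher. Over all peaks the calls fell too, from 650 lower and 1797 higher to 191 and 340 without T30S4. They were 392 and 1182 without T30S3, 369 and 594 without T30S1 and 345 and 1222 without T78S2. Without T54S1 349 were lower, and without T54S2 1406 were higher. Of the unadjusted counts, 217 lower became 125 without T30S4 (11.2%, against 5.53% of all peaks) and 28 higher became 14 without T30S1. The median stayed between −0.25 and −0.11.

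Of the 26 members called lower at T30, 5 lay in protein-coding genes, and the median distance to a start site was 54.0 kb, against 36.5% in such genes and 74.6 kb over all members. The smallest adjusted p was at chr3:62412450-62413442 in Arhgef26, with 8.31, 11.9 and 13.3 at T30, against 22.7, 23.5 and 26.6 at T54 and 20.9, 22.3 and 24.8 at T78. The T30 libraries were below all 6, a difference of −1.06 (SE 0.18, limma, adjusted p = 0.000204) that held without any one library, and the 3 h group T27 was as low, at 12.2 to 13.8. The largest difference, −1.21 (SE 0.31, limma, adjusted p = 0.0176), was at chr10:29399375-29399713, 37.1 kb from Rnf146, and was lost without T54S1, T30S3 or T30S4. A peak 17.5 kb from S1pr1, a sphingosine-1-phosphate receptor gene, at chr3:115732263-115732791, was lower by 1.16 (coefficient −1.16, SE 0.29, limma, adjusted p = 0.0146) and was lost without T30S1 or T30S4.

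Among the 5 higher at T30, chr11:63018159-63018768, 111 kb from the myelin gene Pmp22, had 7.78, 8.01 and 8.12 at T30, against 2.96, 3.87 and 4.10 at T54 and 3.00, 4.51 and 4.96 at T78. There was no overlap, the difference was 0.96 (SE 0.21, limma, adjusted p = 0.00550), and it held without any one library. The peak chr4:5130651-5131529, 338 kb from Impad1, was higher both at T30 (0.72, SE 0.19, limma, adjusted p = 0.0248) and at T60 (0.86, SE 0.19, limma, adjusted p = 0.0443). It had 20.6, 21.1 and 22.0 at T30 and 16.02, 22.9 and 27.2 at T60, against 18.7 to 25.4 in ZT12 controls and 7.58 to 12.9 in ZT6 controls; the T30 call was lost without T78S2, T30S1, T30S3 or T30S4.

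Peaks chosen at ZT0 and ZT6 in the same way were compared over the same libraries. T192 (ZT0) minus the mean of T60 and T198 had a median of 0.30 over the 233 peaks most open at ZT0, positive in 86.7%, and T198 (ZT6) minus the mean of T60 and T192 a median of −0.01 over the 291 peaks most open at ZT6, positive in 48.5%. The corresponding values for the ZT12 peaks were 0.41 and 92.5%. Values over all peaks were not computed for the ZT0 and ZT6 comparisons, so their shares have no background beside them. The lists share the compared libraries, and the differences between them were not tested.

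The lists of clock and stress genes were read against all genes of the promoter table, of which 4.99% (1349 of 27025) had a member within 100 kb of a start site. There was a member within this distance for 1 of the 17 clock genes with a start site in the table (Hlf), 1 of 12 glucocorticoid-responsive genes (Plin4), 0 of 14 immediate early genes and 0 of 7 heat and cold response genes, and no test was made on these counts. The Hlf peak, chr11:90378125-90378597, lay inside the gene, 12.6 kb from the start; Hlf codes for a PAR bZIP transcription factor whose transcription follows the clock. It had 5.81 to 8.54 in ZT12 controls and 2.10 to 7.24 in the other controls, 4.54, 6.50 and 7.98 at T60 and 4.17, 4.59 and 4.85 at T36. T60 minus the mean of T192 and T198, at 4.17 to 5.42 and 3.61 to 6.71, was 0.30 (SE 0.24, limma, adjusted p = 0.904).

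RNA of the nearest genes was an assay the choice of peaks did not use. In controls, ZT12 minus the mean of the other times called 89 of the 820 nearest genes higher (10.9%) and 80 lower (9.76%) by limma at an adjusted p below 0.05, where the background over 13842 genes was 7.66% higher and 10.0% lower. The median change was 0.01 over the nearest genes and −0.01 over all genes. Both shares lay within 1.5 times of the background. Of the 251 nearest genes with a start site within 100 kb, 35 were higher and 26 lower. The share called higher among these was above that of the 820 genes and more than 1.5 times the background, and this was not tested. In deprived mice, T60 minus the mean of T192 and T198 called 69 of the 820 genes higher (8.41%) and 31 lower (3.78%), where the background was 7.31% and 5.09%. Without T60S2, T60S3 or T60S4 the counts were 37, 45 and 17 higher and 18, 14 and 18 lower. Over all 13842 genes they fell too, from 1012 higher to 616, 565 and 423 and from 704 lower to 435, 348 and 372.

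The 3 largest RNA changes among the nearest genes were rises, in Hif3a, Plin4 and Sgk1. Hif3a RNA, on the deposited log2 scale, was 2.89 to 3.44 in ZT12 controls (n = 5), against 0.81 to 1.34 at ZT0, 1.37 to 1.93 at ZT3, 1.59 to 2.21 at ZT6 and 1.41 to 2.09 at ZT18. ZT12 stood above all other controls, by 1.52 on average (limma, adjusted p = 1.56e-14). In deprived mice it was 2.83, 2.96 and 3.30 at T36 and 2.84, 2.87 and 2.99 at T60, against 1.19 to 1.37 at T192 and 1.70 to 1.80 at T198, and T60 was higher by 1.40 (limma, adjusted p = 2.66e-08).

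Plin4 RNA was 1.17 to 2.46 in ZT12 controls and at most 1.14 in the other controls, a change of 1.26 (limma, adjusted p = 6.57e-11). It was 1.55, 1.76 and 2.08 at T36 and 1.20, 1.26 and 1.58 at T60, against 0.32 to 0.43 at T192 and 0.06 to 0.30 at T198, with T60 higher by 1.07 (limma, adjusted p = 2.82e-05). Sgk1, a kinase gene induced by serum and glucocorticoids, lay 157 kb from its nearest member and rose by 0.89 at ZT12 in controls (limma, adjusted p = 2.60e-12) and by 0.94 at T60 (limma, adjusted p = 5.10e-08). For these 3 genes the RNA was high at T36, at 6.05 to 6.10 for Sgk1 against 6.14 to 6.51 in ZT12 controls and 5.18 to 5.46 in ZT0 controls. The median over all members at T36 was below that of every T60 library. At the Hif3a and Plin4 peaks themselves, T36 minus the later groups was positive but missed the threshold. It was 0.57 at Hif3a (SE 0.16, limma, adjusted p = 0.173) and 0.47 at Plin4 (SE 0.19, limma, adjusted p = 0.460).

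**Figure D5:**
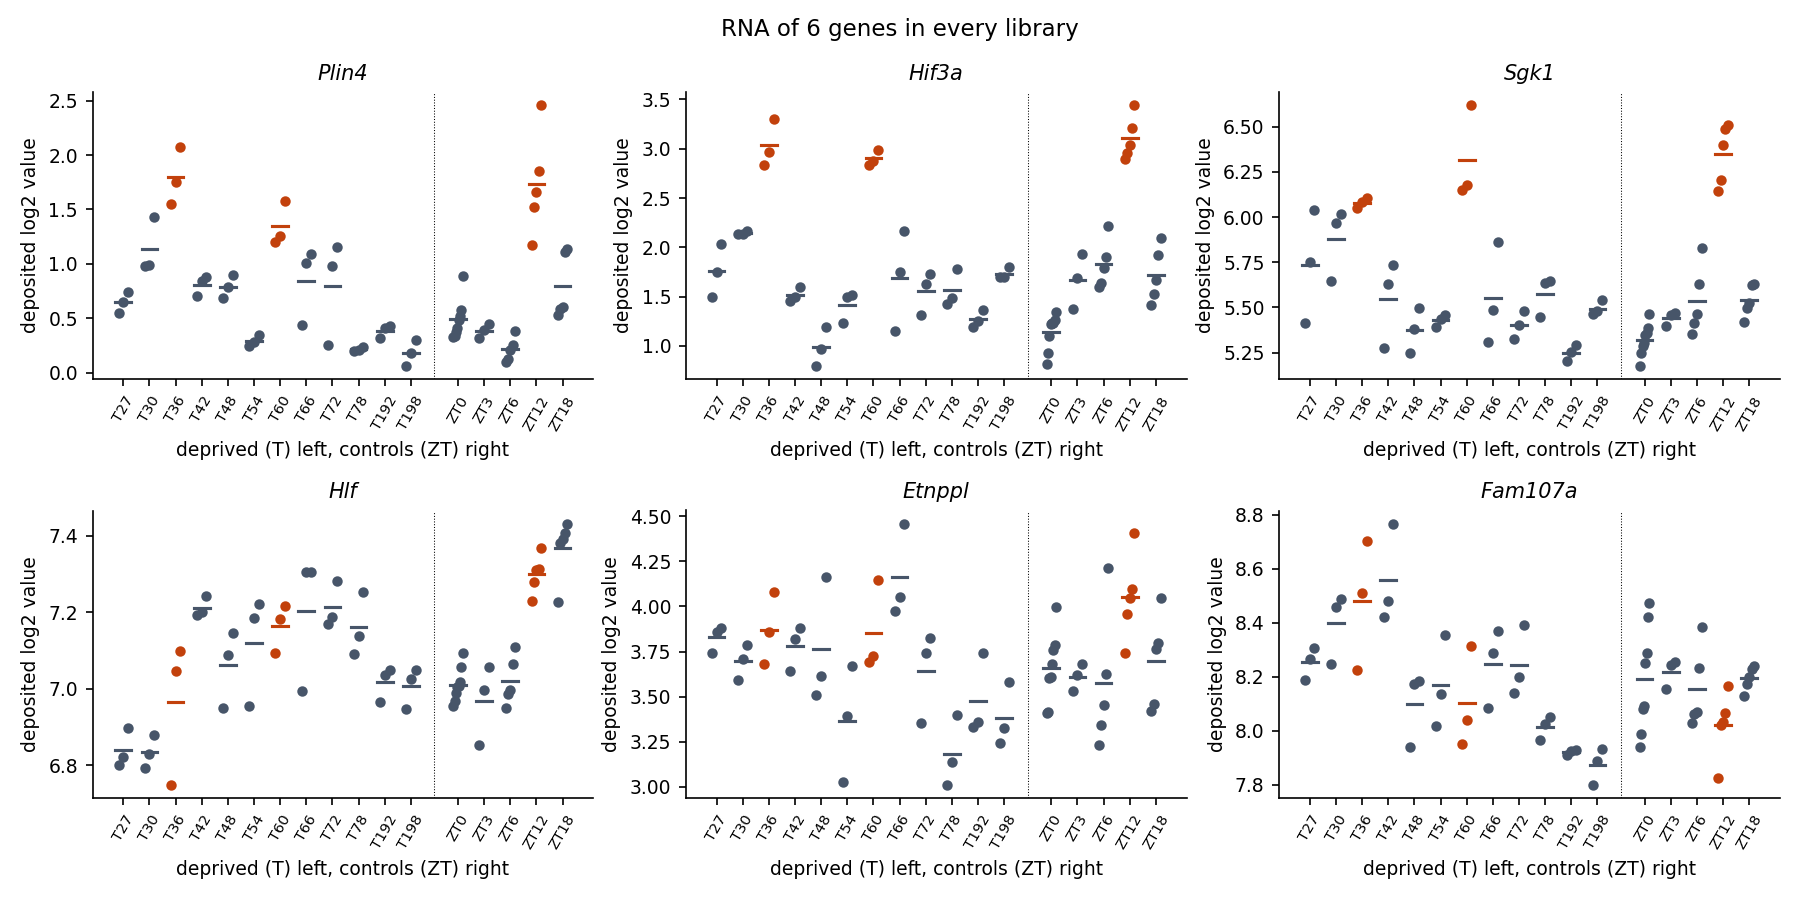
Deposited log2 RNA values in every library (points, with group means as bars) are shown for 6 genes near members, deprived groups on the left and controls on the right of each plot, with ZT12 groups in orange. Hif3a is at 2.83 to 3.30 at T36, 2.84 to 2.99 at T60 and 2.89 to 3.44 in ZT12 controls, and Fam107a, whose peak rose at T60, is at 7.83 to 8.17 in ZT12 controls, overlapping the other controls at 7.94 to 8.47.

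Smaller changes went either way. Etnppl rose by 0.42 at ZT12 in controls (limma, adjusted p = 0.00898, lost without T12N6 at up to 0.0750), and Atp10a, a phospholipid flippase with a member in the gene, by 0.47 (limma, adjusted p = 4.31e-05). Zbtb16, a transcriptional repressor with 2 members as neighbours, rose by 0.31 (limma, adjusted p = 0.00162), and Hlf by 0.21 (limma, adjusted p = 0.000370), with ZT12 controls at 7.23 to 7.37 and ZT18 controls at 7.23 to 7.43. The change of Fam107a RNA at ZT12 in controls was −0.17 (limma, adjusted p = 0.0877), while in deprived mice it was 0.20 at T60 (limma, adjusted p = 0.168), the contrast in which its start-site peak was called, and 0.31 at T30 against T54 and T78 (limma, adjusted p = 0.0132).

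Among the nearest genes with the largest RNA changes at ZT12, several fell below the mean of the other control times. Each is linked to its member only as the nearest measured gene. Gadd45a, a stress-induced growth arrest gene, fell by 0.53 at ZT12 (limma, adjusted p = 0.00226). Cd93, a surface receptor of endothelial cells, fell by 0.49 (limma, adjusted p = 4.10e-07), and Crh, the corticotropin-releasing hormone, by 0.46 (limma, adjusted p = 2.59e-05). The members lay 14.2 kb from Gadd45a, 67.0 kb from Cd93 and 174 kb from Crh. Gadd45a was 2.39 to 2.93 in ZT12 controls, overlapping ZT6 at 2.50 to 3.00, and was highest at ZT0, at 3.16 to 4.37. Vstm4, the linker histone gene Hist1h1c and Cyp26b1, an enzyme that degrades retinoic acid, fell by 0.58, 0.43 and 0.48 (limma, adjusted p = 1.01e-07, 0.00761 and 0.0323). The Cyp26b1 call was lost without any one of T12N1, T12N2, T12N5, T12N6 and T3N2. The Vstm4 member lay inside the gene and the Cyp26b1 member 33.5 kb away. The Hist1h1c member lay 68.4 kb away and 0.939 kb from the start of Slc17a2. Mean levels at ZT12 were close to ZT18 for Hist1h1c (3.38 and 3.37) and to ZT6 for Cyp26b1 (0.48 and 0.49). Of the genes in this paragraph, only Cd93 and Vstm4 had every ZT12 control below every other control. The fall of Cd93 stood beside that of the 3 endothelial markers given above, and its part in the result was not tested.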

How the data were processed

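ATAC-seq and RNA-seq were made from the cortex of the same mice. Per the submitters' processing notes, the tools were FastQC, Bowtie2, SAMtools, bedtools 2.26.0, MACS2 2.1.1, HTSeq 0.6.1, kallisto 0.43.0 and sleuth 0.29.0, with the builds GRCm38 and mm10. The deposited ATAC-seq values are a signal per peak, equal to RPM scaled by TMM factors, and whole reads were recovered for 100% of values within 0.02 of a whole number. The RNA-seq values were deposited by the authors on a log2 scale, with a unit not given in the sources used here. Repeat library T0N3_2 was left out of the ATAC-seq fits.

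ATAC-seq values were tested as log2(signal + 0.5) with limma 3.58.1 in R 4.3.3 (a mean for each group, a batch term, intensity trend, 59 libraries, 130727 peaks), and RNA values with the same model (62 libraries, 13842 genes). P-values were adjusted by Benjamini-Hochberg over all peaks or genes, and fold changes are on the log2(signal + 0.5) scale. edgeR 4.0.16 on the recovered reads was an alternative. The code was tested on simulated data. Comparisons with controls are values only, since controls chose the peaks.

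The members and lists were chosen with earlier results of these data known. Text names the 12 members of largest excess, up to 6 called members each way per comparison (the 3 of smallest p where none passed), the 3 on either side of the threshold, promoter and listed-gene members, the 12 nearest genes of largest RNA change and listed genes; 1 of these genes and 1 marker are not reported here. The Hif3a peak and Fam107a RNA were added after their values were seen. Start sites are from RefSeq (GRCm38.p6), which here gave none on chromosome 18, so 49 members have no distance. Read counts are subject to counting error that limits the lowest peaks. Each library is 1 mouse.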

Additional observations from a re-analysis of the deposited data

Results flagged for a closer look

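In 11 of 244 groups of 4 to 8 control libraries (4.51%), 1 library lay apart from the rest by Dixon's criterion, which chance gives in about 1 in 20 groups. Groups of 3 or fewer libraries, among them all deprived groups, were too small and were not screened. On the log2 scale, the lowest ZT0 control was 1.61 (next 2.22) at chr16:37871302-37871790 and 0.46 (next 1.61) at chr15:12728337-12728811. The lowest ZT12 control was 2.52 (next 3.18) at chr19:20686790-20687200 and 3.15 (next 3.77) at chr16:77930942-77931756, both in library T12N5, and 2.07 (next 2.58) at chr18:70114712-70115114. The highest ZT12 control was 4.00 (next 3.69) at the Sv2b start-site peak. At chr15:71243374-71244219 the highest ZT18 control was 3.90 (next 3.29), and at chrX:74836826-74837199 the lowest ZT6 control was -0.36 (next 1.53). In RNA, the highest ZT0 control of Plin4 was 0.89 (next 0.57), the lowest ZT18 control of Hlf 7.23 (next 7.38) and the lowest ZT6 control of Crh 2.87 (next 3.12).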

How the results depend on the processing

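No peak named by a comparison changed sign in that comparison, and no named gene did in RNA at ZT12 or T60. Peaks named for other reasons were not checked. The T36 median over members (−0.03) changed sign: it was 0.0029 without T36S1 and 0.0056 with T27 and T30 added. Of the counts under alternatives, 189 stayed within 1.5 times and 53 did not. Members called higher at T60 (17) numbered 11 with T66 added to T192 and T198, 4 with only the groups compared and 225 by edgeR. All peaks called higher (29) numbered 13, 6 and 680 in the same order. Without 1 library the counts were 0 to 48 for members and 0 to 81 for all peaks. Members called higher at T36 (0) numbered 2 and 1 with pseudocounts of 0.1 and 2 and 4 with only the groups compared. They numbered 1 after centring on distant other peaks and 1 by edgeR. All peaks called higher (3) numbered 6, 7, 14, 4 and 5 in the same order. Without 1 library the counts were 0 to 1 for members and 0 to 9 for all peaks. At T30, 26 lower calls became 75 with only the groups compared and 4 to 29 without 1 library. Those of all peaks (650) became 1388 and 191 to 661. The 5 higher calls became 2 to 6 without 1 library, and those of all peaks (1797) became 340 to 1882. T36 minus T60 gave 11 lower calls with no batch term and 7 by edgeR, where all peaks gave 53 and 17. Only the groups compared was not run for it, since batch and group cannot be told apart there. Restricted to the 251 nearest genes with a start site within 100 kb, RNA calls were 35 higher and 26 lower at ZT12. All 13842 genes gave 1060 higher (7.66%) and 1391 lower (10.0%) there. The share called higher among the 251 genes was above this and above that of all 820 nearest genes. At T60 the 251 genes gave 18 higher and 10 lower, against 1012 and 704 of all genes. T60 RNA of all 820 nearest genes gave 20 lower with only the groups compared, against 511 of all genes. Without 1 library it gave 17 to 74 higher and 14 to 38 lower, against 423 to 1120 and 348 to 772 of all genes. The number of members was 2659 at an excess of 0.3 and 194 at 0.6. It was 499 with a pseudocount of 2 (42.6% of the members among them) and 1675 with batch 1 controls only (71.0%). Without 1 ZT12 library it was 1144 to 1737, with 77.5% to 93.9% of the members kept. Without 1 other control it was 861 to 1285, with 73.0% to 98.7% of the members kept. The cause was not tested. Centring, RPM without TMM factors and leaving out other controls were chosen after seeing the data.

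Same-numbered libraries did not deviate together at the median (correlation of residuals -0.0025 over 315 pairs in ATAC-seq and -0.0014 over 330 in RNA-seq). In ATAC-seq 6.98% of these pairs had a correlation above 0.1, a share not computed for other pairs. Such medians cannot exclude that some same-numbered libraries are paired. With animal number as a replicate block, 16 members were higher at T60, and 6 higher and 21 lower at T30. Over all peaks the counts were 21 higher at T60, and 1816 higher and 647 lower at T30. Depth limits the lowest members, at 8 reads per library for the median member in the shallowest library.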
